A study of Medicago ruthenica with 9 samples.

Results

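The leaf transcripts described here encode the enzymes that make and break down abscisic acid (ABA) at the committed steps of its synthesis and its breakdown. They were chosen by name and description. Unigenes qualified with a TPM of at least 1 in at least 3 libraries and a symbol that began with NCED or CYP707A, or with a protein described as 9-cis-epoxycarotenoid dioxygenase or ABA 8′-hydroxylase. This gave 10 unigenes, 2 NCED and 8 CYP707A, of 44538 tested and 52457 deposited, and no unigene that matched by name was lost to the TPM filter. TPM corrects abundance for the length of the unigene and for the library total, so levels can be set side by side between genes.

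ABA is the hormone that closes stomata and switches on protective genes when a plant dries. It is made from carotenoids: in the plastid, NCED cleaves a 9-cis-epoxycarotenoid to xanthoxin, which is generally held to be the rate-limiting step, and xanthoxin is then oxidized in the cytosol to ABA. CYP707A enzymes are cytochrome P450 monooxygenases that hydroxylate ABA at its 8′ position, which leads to its inactivation. The amount of the hormone thus depends on both families, and RNA abundance measures neither enzyme activity nor ABA itself.

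The RNA came from leaves of the forage legume Medicago ruthenica, in 3 groups of 3 libraries. DS plants had gone 15 days without water and stood at a relative soil moisture of 20%. RW plants had gone through the same 15 days and were sampled 2 days after water was returned, and CK plants received water every 3 days, with soil moisture kept above 80%. All plants were 4 weeks old when the groups were formed and grew 8 to a pot in one climate chamber without added nutrients, from one cultivar with no further genotype given. CK and DS leaves were taken on day 15 and RW leaves later, so rewatering and harvest day cannot be told apart. The study calls the replicates biological, and the labels name no plant or pot of origin. The spread behind each p-value is thus that of these libraries and may in part be technical.

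TPM summed to between 994748 and 996266 per library, and the read depth behind each value was unknown. The leaf identity was checked on rubisco small subunit and light-harvesting proteins: 30 of 33 matching unigenes were tested, none was at 0 throughout a group, and they summed to 33126 to 91596 TPM in DS, 59338 to 82015 in RW and 69225 to 93395 in CK. Within DS, replicate 2 had the lowest sum and replicate 3 the highest. Of these 30 leaf unigenes, 1 was called higher and 1 lower in DS vs. CK, against 2.39% and 2.57% of all unigenes. Xylem and secondary wall unigenes (28 of 30 tested) summed to 44.3 to 208 TPM in DS, 109 to 463 in RW and 350 to 1107 in CK. Of the 28, 8 were called lower in DS vs. CK, against 2.57% of all unigenes, and none higher. LAC6, a laccase, was at 0 in every DS library. The part of these marker levels in the values below was not tested. RW replicate 2 stood apart, with 3618 unigenes of its own (at least 5 TPM there and below 0.5 TPM in every other library), against 13 to 166 in the other libraries. In such whole-leaf samples, fewer cells of a type and less RNA per cell cannot be told apart.

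The 10 unigenes carry symbols of the closest SwissProt entry: NCED1, NCED3, CYP707A1, CYP707A3, 3 unigenes named CYP707A2 and 3 named CYP707A4. Both NCED unigenes hold the RPE65 domain of carotenoid oxygenases and share the KEGG entry K09840, which the deposited annotation also gives to 3 CCD4 unigenes. All 8 CYP707A unigenes hold the p450 domain and share K09843 with 1 further unigene, ROT3 (TRINITY_DN23683_c1_g1), which is described as a brassinosteroid P450 and is no ABA 8′-hydroxylase by description. The GO term for (+)-ABA 8′-hydroxylase activity was attached to 4 of the 8, namely CYP707A1, CYP707A3 and 2 CYP707A4 unigenes. ABA metabolic process was attached to 5 of the 8, and the terms for brassinosteroid synthesis and brassinosteroid homeostasis to all 8. CYP707A1, CYP707A3 and a 221 bp CYP707A2 fragment belong to a single Trinity component (DN20125_c1), a cluster of transcripts with shared sequence, so reads may be divided among them unevenly. The other lengths ran from 735 bp for a CYP707A2 unigene to 2549 bp for CYP707A3.

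Drought and rewatering were compared by limma on log2(TPM + 1), fitted over all 44538 unigenes. Calls required a p below 0.05 after Benjamini-Hochberg adjustment and a change of more than 1 on the log2 scale, in either direction. In DS vs. CK, 2 of the 10 unigenes rose, none fell and 8 were not called, against 4.96% of all unigenes called (2.39% higher and 2.57% lower). In DS vs. RW, the count was again 2 higher, 0 lower and 8 not called, against 3.94% of all unigenes (2.15% higher and 1.79% lower). In both comparisons the pair that rose was NCED1 and CYP707A3, 1 unigene of each family. The comparisons share the DS libraries. Without RW replicate 2 the counts were also 2 and 2. With an unadjusted p under 0.05 and the same fold threshold, 5 members in DS vs. CK would pass, against 14.3% of all unigenes, and 8 in DS vs. RW, against 12%. The median log2 fold change of the members was 0.03 in DS vs. CK and 0.20 in DS vs. RW, and that of all tested unigenes was −0.19 and −0.17 (−0.05 and −0.06 after median-of-ratios scaling).

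**Figure D1:**
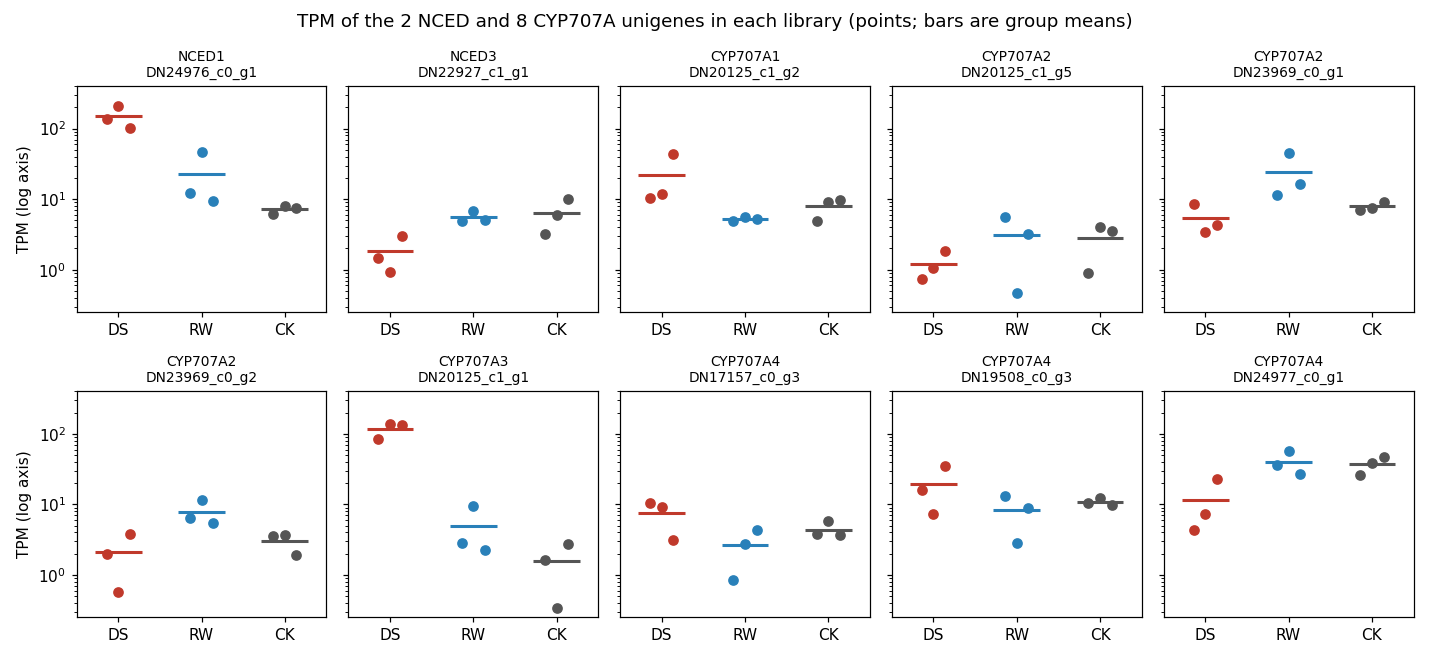
TPM of each of the 10 unigenes on a log axis, with 1 point per library, the groups DS, RW and CK from left to right, and a bar at each group mean. NCED1 and CYP707A3 stand above 80 TPM in all 3 DS libraries, while CYP707A4 DN24977_c0_g1 and NCED3 lie lower in all 3 DS libraries than in any RW or CK library.

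NCED1 (TRINITY_DN24976_c0_g1, 2199 bp) was the most abundant member under drought. Its TPM was 135, 210 and 101 in DS replicates 1 to 3, against 12.1, 46.0 and 9.42 in RW and 6.25, 7.90 and 7.49 in CK. All DS libraries lay above all RW libraries, and all RW libraries lay above all CK libraries, with the highest RW value in replicate 2. The means were 149 ± 55.7 TPM in DS, 22.5 ± 20.4 in RW and 7.21 ± 0.859 in CK (SD, n = 3 libraries each), so the DS mean was 20.6 times that of CK and 6.61 times that of RW. On the log2 scale NCED1 rose by 4.13 in DS vs. CK (SE 0.51, 95% interval 2.99 to 5.27, limma adjusted p = 0.00202). In DS vs. RW it rose by 2.95 (95% interval 1.81 to 4.08, limma adjusted p = 0.0126). The call in DS vs. RW was lost without DS replicate 2, the library with the highest value (2.67, limma adjusted p = 0.053). Without RW replicate 2 the change in DS vs. RW was 3.61 (limma adjusted p = 0.00106), and the DS mean was 13.8 times that of RW. Its mean stood at the 97.8th percentile of tested unigenes in DS, at the 82.5th in RW and at the 61.2nd in CK.

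NCED3 (TRINITY_DN22927_c1_g1, 2213 bp) went the other way. In Arabidopsis, the gene of that name is the main drought-responsive NCED of leaves. Here TPM was 1.48, 0.93 and 3.03 in DS, 4.90, 6.80 and 5.06 in RW, and 3.21, 5.91 and 10.03 in CK. All DS libraries lay below all RW and all CK libraries, and RW and CK overlapped. The log2 fold change was −1.35 in DS vs. CK (95% interval −2.30 to −0.41, limma adjusted p = 0.103) and −1.28 in DS vs. RW (95% interval −2.23 to −0.34, limma adjusted p = 0.137), so neither difference was called. NCED1 made up 97.1% to 99.6% of the summed NCED TPM in DS, 65.1% to 87.1% in RW and 42.8% to 66.1% in CK.

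CYP707A3 (TRINITY_DN20125_c1_g1, 2549 bp) showed the largest fitted change of the 10 unigenes, whether DS was set against CK or against RW. The Arabidopsis gene of that name is active in leaves and takes part in lowering ABA around dehydration and rehydration. TPM was 84.5, 139 and 133 in DS, 2.80, 9.65 and 2.23 in RW, and 1.61, 0.34 and 2.74 in CK. The DS libraries were far above all others, whereas RW and CK overlapped at a low level, again with RW replicate 2 highest in its group. The means were 119 ± 30.1 TPM in DS, 4.89 ± 4.13 in RW and 1.56 ± 1.20 in CK, so the DS mean was 76.2 times that of CK and 24.3 times that of RW. The log2 fold change was 5.64 in DS vs. CK (SE 0.51, 95% interval 4.50 to 6.77, limma adjusted p = 0.000351). In DS vs. RW it was 4.53 (95% interval 3.40 to 5.67, limma adjusted p = 0.00131), and both calls held with any 1 library left out. Without RW replicate 2 the change in DS vs. RW was 5.07 (limma adjusted p = 0.00106), and the DS mean was 47.4 times that of RW. Summed over component DN20125_c1, CYP707A3 together with CYP707A1 and the CYP707A2 fragment, the changes were 3.27 (limma adjusted p = 0.00321) and 2.76 (limma adjusted p = 0.0083).

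In CK leaves CYP707A3 had the lowest mean of all 10 members, and in DS leaves the second highest, after NCED1. The ranges of NCED1 and CYP707A3 overlapped in DS, so their order was not fixed, and both lay above the range of the next member, CYP707A1. Over the 9 libraries, Pearson's r of NCED1 and CYP707A3 on log2(TPM + 1) was 0.965. That value is a description, since the points share 3 group levels. Within DS the pair did not keep a fixed proportion: the ratio of CYP707A3 to NCED1 TPM was 0.625, 0.664 and 1.32 in DS replicates 1 to 3, against 0.231, 0.210 and 0.237 in RW and 0.258, 0.0430 and 0.366 in CK. All 3 DS ratios exceeded all RW and CK ratios.

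**Figure D2:**
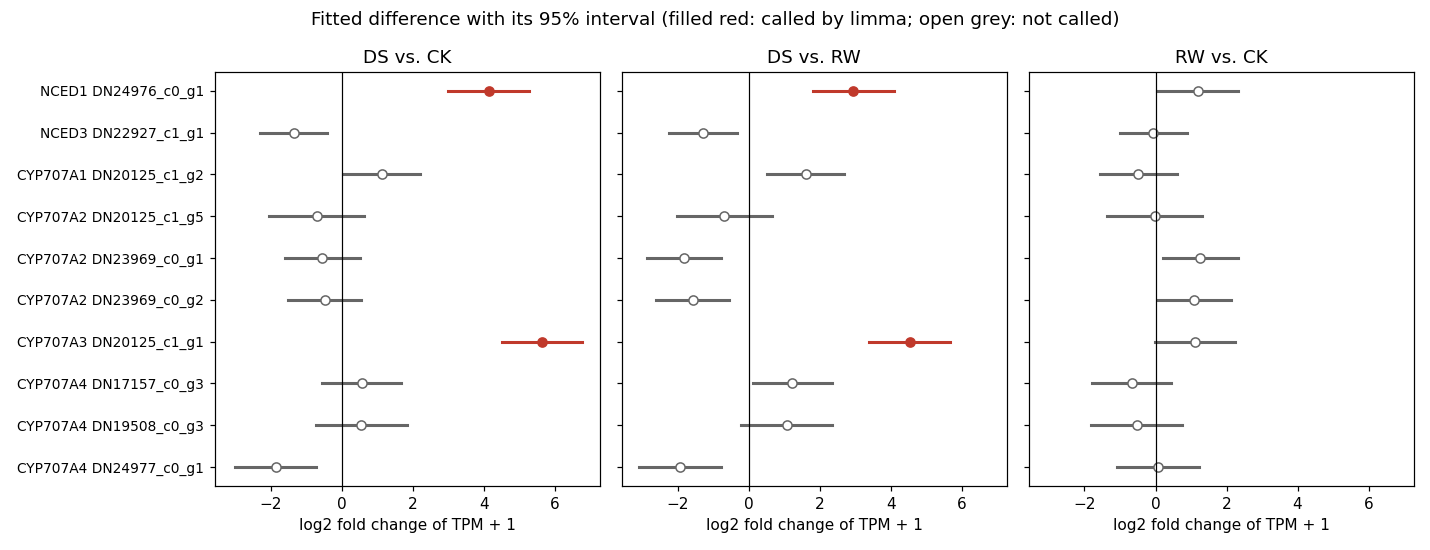
Fitted log2 fold change of TPM + 1 (points) with its 95% interval (lines) for each of the 10 unigenes in a panel for each comparison (left DS vs. CK, middle DS vs. RW, right RW vs. CK). Red filled points are called unigenes and open grey points are the rest: NCED1 and CYP707A3 alone are filled in the left and middle panels, and none is filled in the right one.

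CYP707A1 (TRINITY_DN20125_c1_g2, 2176 bp), which in Arabidopsis acts in guard cells among other places, had 10.6, 11.99 and 43.9 TPM in DS, 4.97, 5.51 and 5.15 in RW, and 4.87, 9.23 and 9.81 in CK. The DS libraries lay above RW and above CK without overlap, but DS replicates 1 and 2 were close to the upper CK values and replicate 3 was several times higher. The log2 fold change was 1.12 in DS vs. CK (95% interval 0.04 to 2.21, limma adjusted p = 0.226) and 1.61 in DS vs. RW (95% interval 0.52 to 2.69, limma adjusted p = 0.108), and neither was called. Without DS replicate 3 the value was 0.50 in DS vs. CK and 0.98 in DS vs. RW.

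The 3 CYP707A4 unigenes did not move together. The most abundant, TRINITY_DN24977_c0_g1 (1814 bp), had 4.37, 7.24 and 23.2 TPM in DS, 35.7, 57.2 and 27.2 in RW, and 26.4, 38.9 and 46.6 in CK. All DS libraries were below all RW and CK libraries, with DS replicate 3 only a little under the lowest of them. Its log2 fold change was −1.87 in DS vs. CK (95% interval −3.01 to −0.72, limma adjusted p = 0.0687) and −1.94 in DS vs. RW (95% interval −3.08 to −0.79, limma adjusted p = 0.0712). It was not called with all libraries. Without DS replicate 3 it was called lower in both, at −2.49 (limma adjusted p = 0.0104) and −2.56 (limma adjusted p = 0.0102).

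The second CYP707A4 unigene, TRINITY_DN19508_c0_g3 (1701 bp), had 16.2, 7.21 and 35.1 TPM in DS, 13.2, 2.86 and 8.91 in RW, and 10.5, 12.2 and 9.87 in CK. The third, TRINITY_DN17157_c0_g3 (1766 bp), had 10.3, 9.11 and 3.16 TPM in DS, 0.86, 2.75 and 4.33 in RW, and 3.75, 5.83 and 3.63 in CK. The groups overlapped for both unigenes, and their log2 fold changes in DS vs. CK were 0.54 (95% interval −0.74 to 1.82) and 0.55 (95% interval −0.56 to 1.67). Summed by name, CYP707A4 averaged 38.6 ± 20.1 TPM in DS, 51.0 ± 11.3 in RW and 52.6 ± 10.5 in CK, with a log2 fold change of −0.53 in DS vs. CK (limma adjusted p = 0.419).

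Of the 3 CYP707A2 unigenes, the 2 longer ones had their highest TPM in RW, and none was called in any comparison. In Arabidopsis this gene is known from seeds, where it lowers ABA before germination. TRINITY_DN23969_c0_g1 (844 bp) had 8.63, 3.44 and 4.32 TPM in DS, 11.6, 44.5 and 16.1 in RW, and 7.13, 7.56 and 9.18 in CK. Its component partner TRINITY_DN23969_c0_g2 (735 bp) had 2.00, 0.58 and 3.78 TPM in DS, 6.44, 11.5 and 5.45 in RW, and 3.55, 3.70 and 1.91 in CK. For both, all RW libraries lay above all DS and all CK libraries, with RW replicate 2 the highest, and DS and CK overlapped. Whether these shorter unigenes are parts of one transcript could not be read from TPM.

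In DS vs. RW the log2 fold change was −1.81 for TRINITY_DN23969_c0_g1 (95% interval −2.86 to −0.77, limma adjusted p = 0.0643) and −1.58 for TRINITY_DN23969_c0_g2 (95% interval −2.61 to −0.54, limma adjusted p = 0.0992). Neither was called on its own. With TPM summed over the 3 CYP707A2 unigenes, the values were 11.4, 5.07 and 9.92 in DS, 23.7, 56.5 and 24.8 in RW, and 11.6, 15.2 and 14.6 in CK. The sum was called lower in DS vs. RW, at −1.83 (limma adjusted p = 0.0267), and was not called in RW vs. CK, at 1.17 (limma adjusted p = 0.743). The call in DS vs. RW was lost without DS replicate 2 (−1.52, limma adjusted p = 0.0838), DS replicate 3 (−1.94, 0.054), RW replicate 2 (−1.43, 0.0576) or RW replicate 3 (−2.01, 0.0571). The 221 bp fragment TRINITY_DN20125_c1_g5 had 0.73, 1.05 and 1.82 TPM in DS, 5.67, 0.47 and 3.23 in RW, and 0.90, 3.98 and 3.55 in CK, and its groups overlapped in all comparisons.

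The comparison of RW with CK asked which transcripts still differed 2 days after water was returned. None of the 10 unigenes was called by limma, against 0.00225% of all unigenes, which is 1 unigene (3AT1, TRINITY_DN23805_c0_g4, a transferase lower in RW, named here for completeness of the count). With an unadjusted p under 0.05 and the same fold threshold 3 members would pass, against 4.34% of all unigenes. These were NCED1 and the 2 long CYP707A2 unigenes, the same 3 whose RW libraries all lay above all CK libraries, against 5.35% of all unigenes with RW above CK without overlap and 11.8% in either direction. The log2 fold changes were 1.19 for NCED1 (95% interval 0.05 to 2.32, limma adjusted p = 0.757), 1.27 for TRINITY_DN23969_c0_g1 (95% interval 0.22 to 2.31, limma adjusted p = 0.745) and 1.09 for TRINITY_DN23969_c0_g2 (95% interval 0.06 to 2.12, limma adjusted p = 0.753). Without RW replicate 2 they were 0.52, 0.72 and 0.81. CYP707A3 had 1.11 (95% interval −0.03 to 2.24, limma adjusted p = 0.773), and 0.57 without RW replicate 2.

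Counted by overlap of the TPM ranges, 3 members lay higher in DS than in CK in all libraries (NCED1, CYP707A1 and CYP707A3, against 8.86% of all unigenes) and 2 lay lower (NCED3 and CYP707A4 TRINITY_DN24977_c0_g1, against 18.1%), which makes 5 of 10 against 26.9% in either direction. In DS vs. RW the same 3 lay higher (against 8.01%) and 4 lay lower (against 15.7%), the added pair being the long CYP707A2 unigenes, which makes 7 of 10 against 23.7%. With 3 libraries a group, the smallest p of an exact permutation test is 0.1.

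The makeup of the CYP707A pool differed with water supply. CYP707A3 made up 53.6% to 77.4% of the summed CYP707A TPM in DS, 3.07% to 7.18% in RW and 0.416% to 3.14% in CK. CYP707A4 made up 13.1% to 24.7% in DS, 46.7% to 61.2% in RW and 68.9% to 69.6% in CK. In CK the ranking began with CYP707A4 TRINITY_DN24977_c0_g1 (37.3 TPM), whose range lay above that of the next member, TRINITY_DN19508_c0_g3 (10.8 TPM), which in turn lay above CYP707A1 (7.97 TPM). Each later neighbour in CK overlapped the next. In RW the ranking was CYP707A4 TRINITY_DN24977_c0_g1 (40.01 TPM), CYP707A2 TRINITY_DN23969_c0_g1 (24.1 TPM) and NCED1 (22.5 TPM), and all neighbours overlapped.

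**Figure D3:**
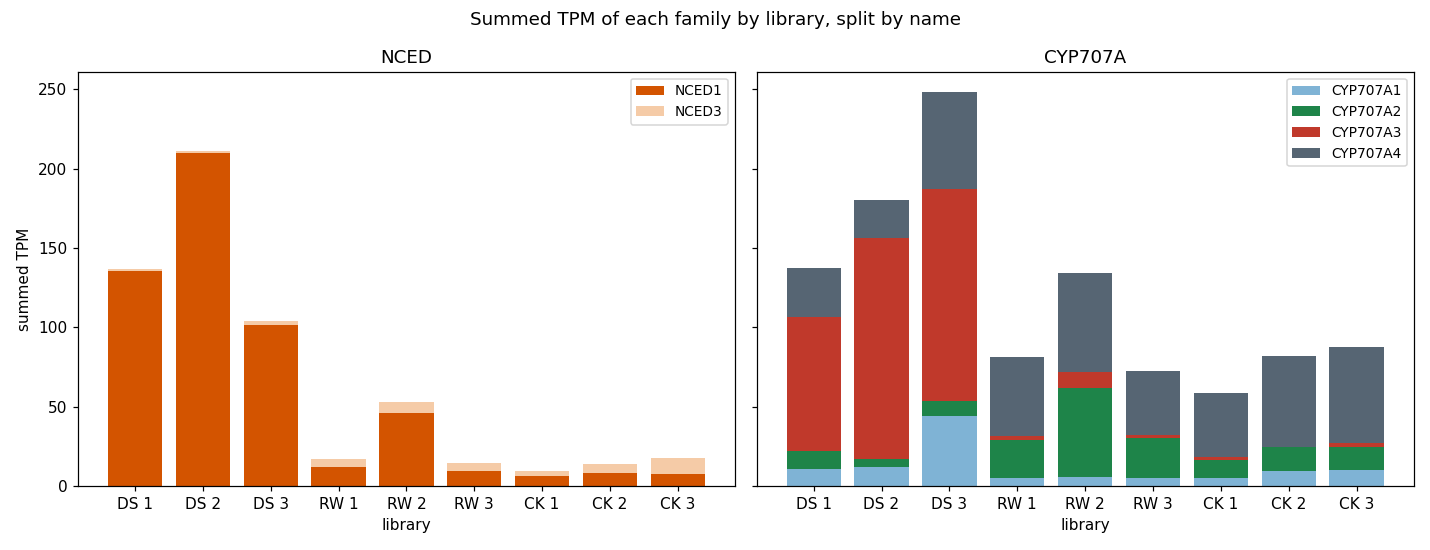
Summed TPM of the NCED unigenes (left) and of the CYP707A unigenes (right) in each library, DS, RW and CK from left to right, with bars starting at 0 and split by name. NCED1 and CYP707A3 fill most of the DS bars, and CYP707A4 is the largest share of the CYP707A bars in CK.

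Summed NCED TPM was 137, 211 and 104 in DS, 17.0, 52.8 and 14.5 in RW, and 9.46, 13.8 and 17.5 in CK. Summed CYP707A TPM was 137, 180 and 249 in DS, 81.3, 134 and 72.6 in RW, and 58.7, 81.7 and 87.3 in CK. The DS sums lay above those of RW and CK in both families. For CYP707A the margin was small between DS replicate 1 (137) and RW replicate 2 (134). The ratio of CYP707A to NCED TPM, which does not depend on how a library is scaled, was 1.004, 0.853 and 2.38 in DS, 4.77, 2.55 and 5.01 in RW, and 6.20, 5.92 and 4.99 in CK. It averaged 1.41 ± 0.844 in DS, 4.11 ± 1.36 in RW and 5.70 ± 0.636 in CK (SD, n = 3 libraries each). All DS ratios were below all RW and CK ratios, and RW and CK overlapped. The margin was small between DS replicate 3 (2.38) and RW replicate 2 (2.55). This order of the sums over all 10 members turned in both subsets tried. From CYP707A3 over NCED1 alone the ratio averaged 0.869 in DS, 0.226 in RW and 0.222 in CK. Without these unigenes it averaged 39.1 in DS, 16.1 in RW and 13.3 in CK, so that DS was highest in each. In the latter subset NCED3 was the only NCED unigene, at 0.93 to 3.03 TPM in DS, near the filter of 1 TPM. The summed CYP707A TPM of that subset was not highest in DS (means 69.6 in DS, 91.2 in RW and 74.3 in CK).

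The other steps of ABA synthesis and removal were read from lists of descriptions. Of 18 unigenes of the carotenoid steps before NCED, 3 rose in DS vs. CK, none fell and 15 were not called, against 4.96% of all unigenes called. Their median log2 fold change was 0.14, against −0.19 over all unigenes. In DS vs. RW 3 rose and none fell, against 3.94% called (median 0.02, against −0.17). The 3 that rose were a pair of phytoene synthases, the enzyme that opens the carotenoid pathway, and 1 beta-carotene hydroxylase. The phytoene synthase TRINITY_DN17111_c0_g3 averaged 97.9 ± 27.1 TPM in DS, 14.03 ± 6.46 in RW and 16.6 ± 4.52 in CK (log2 fold change 2.49 in DS vs. CK, limma adjusted p = 0.00448, and 2.79 in DS vs. RW, limma adjusted p = 0.00267). The more abundant one, TRINITY_DN25638_c1_g1, averaged 493 ± 61.8 TPM in DS, 185 ± 37.7 in RW and 217 ± 51.3 in CK (1.20 in DS vs. CK, limma adjusted p = 0.0213, and 1.43 in DS vs. RW, limma adjusted p = 0.0107). Its call in DS vs. CK was lost without DS replicate 1, DS replicate 2, CK replicate 2 or CK replicate 3, with a limma adjusted p of up to 0.0812, and after quantile normalization (0.92, limma adjusted p = 0.0516). Summed over its Trinity component, neither comparison was called (0.82 in DS vs. CK, limma adjusted p = 0.101, and 1.01 in DS vs. RW, limma adjusted p = 0.0573).

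The beta-carotene hydroxylase CA2 (TRINITY_DN16920_c0_g1), which makes zeaxanthin, averaged 107 ± 12.8 TPM in DS, 38.3 ± 11.04 in RW and 36.2 ± 6.90 in CK (1.54 in DS vs. CK, limma adjusted p = 0.00716, and 1.48 in DS vs. RW, limma adjusted p = 0.00944). Zeaxanthin epoxidase (7 unigenes), violaxanthin de-epoxidase (2), lycopene beta cyclase (1) and neoxanthin synthesis (2) held no called unigene. Zeaxanthin epoxidase summed to 518 ± 69.9 TPM in DS, 617 ± 76.8 in RW and 520 ± 140 in CK, and the sums overlapped. Of its 7 unigenes, 1 (TRINITY_DN17292_c1_g1) is described as a putative zeaxanthin epoxidase but has temperature-induced lipocalin as its SwissProt match. Without it the sums were 470 ± 64.5 TPM in DS, 515 ± 90.01 in RW and 417 ± 108 in CK, and still overlapped.

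After NCED, 10 unigenes cover the oxidation of xanthoxin to ABA. In DS vs. CK 1 rose, none fell and 9 were not called, against 4.96% of all unigenes called (median −0.29, against −0.19). The count was the same in DS vs. RW, against 3.94% of all unigenes called (median −0.43, against −0.17). Of the 10, 1 had a positive log2 fold change in DS vs. CK and 4 in DS vs. RW. The one that rose was FLACCA (TRINITY_DN17164_c1_g2), a molybdenum cofactor sulfurase that activates the cofactor of abscisic aldehyde oxidase. It averaged 20.0 ± 7.79 TPM in DS, 2.56 ± 0.317 in RW and 3.44 ± 1.47 in CK (2.21 in DS vs. CK, limma adjusted p = 0.0111, and 2.48 in DS vs. RW, limma adjusted p = 0.00637). The call in DS vs. CK was lost without DS replicate 2 (limma adjusted p = 0.0512), and neither call held with TPM summed over the unigenes that share this name (0.63 and 0.86). The most abundant unigene of this list, AAO3 (TRINITY_DN25049_c0_g2), an abscisic aldehyde oxidase by its SwissProt match that is described as indole-3-acetaldehyde oxidase, averaged 49.0 ± 6.03 TPM in DS, 70.5 ± 17.6 in RW and 64.0 ± 7.60 in CK, and its log2 fold change of −0.38 in DS vs. CK was not called (95% interval −0.87 to 0.11). Xanthoxin dehydrogenase (1 unigene) averaged 17.4 ± 3.90 TPM in DS, 26.3 ± 4.27 in RW and 48.8 ± 26.9 in CK. Its log2 fold change of −1.30 in DS vs. CK was not called (limma adjusted p = 0.0841).

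**Figure D4:**
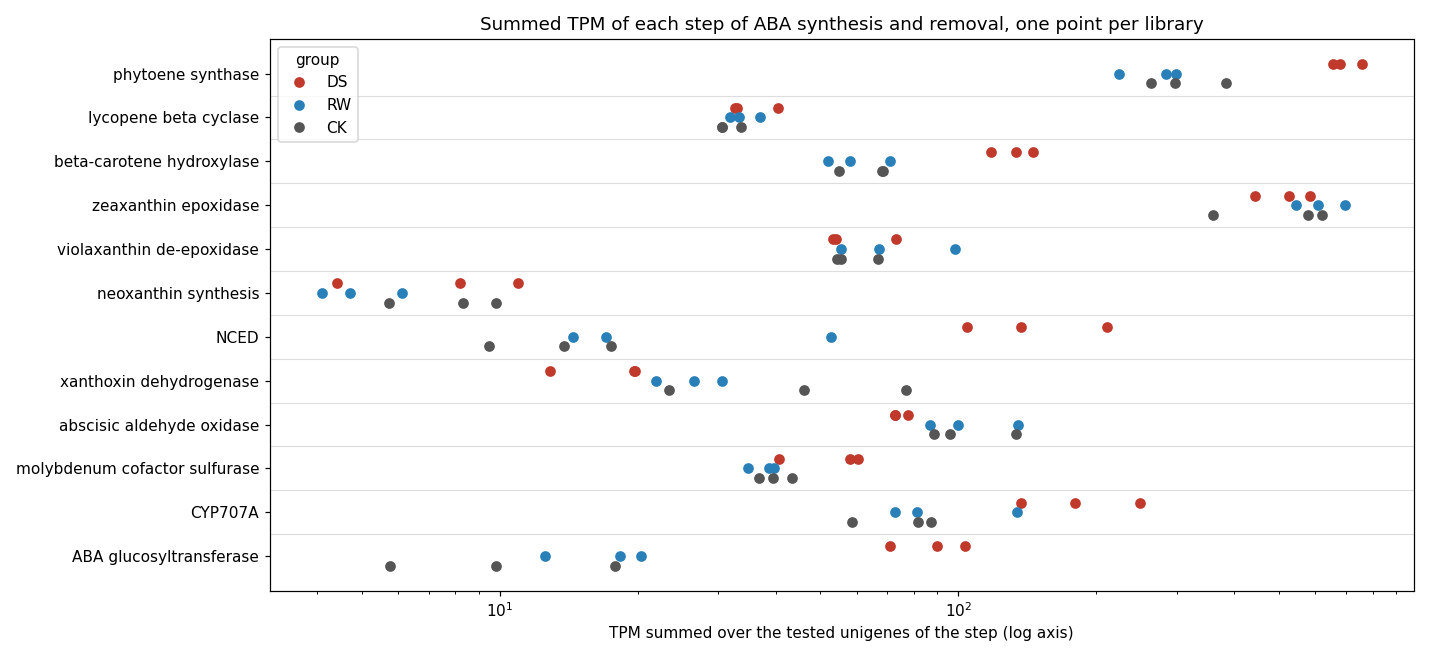
TPM summed over the tested unigenes of each step of ABA synthesis and removal (log axis), with steps in pathway order from top to bottom and 1 point per library for DS (top), RW and CK (bottom) within a step. Phytoene synthase, beta-carotene hydroxylase, NCED, CYP707A and ABA glucosyltransferase have all DS points to the right of all RW and CK points. Abscisic aldehyde oxidase and xanthoxin dehydrogenase have all DS points to the left.

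ABA is also removed by conjugation to glucose. The single unigene of that list, AOG (TRINITY_DN15076_c0_g3), an abscisate beta-glucosyltransferase, had 103, 71.1 and 89.6 TPM in DS, 18.3, 20.3 and 12.5 in RW, and 5.78, 17.9 and 9.80 in CK. The DS libraries were all above the others, and RW and CK overlapped. It rose in DS vs. CK (2.98, limma adjusted p = 0.00178) and in DS vs. RW (2.31, limma adjusted p = 0.00679), and kept both calls with any 1 library left out.

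Among 10 unigenes of ABA transport, none was called in DS vs. RW by limma, against 3.94% of all unigenes. With an unadjusted p under 0.05 and the same fold threshold 0 would pass, against 12%. In DS vs. CK 1 fell, against 2.57% of all unigenes called lower. It was NPF4.6 (TRINITY_DN18955_c0_g2), an importer of ABA in Arabidopsis, with 4.94 ± 3.20 TPM in DS, 8.86 ± 5.11 in RW and 23.1 ± 5.03 in CK (−2.13 in DS vs. CK, limma adjusted p = 0.0247). The call was lost without DS replicate 1, DS replicate 2 or any 1 CK replicate (limma adjusted p up to 0.0864), and the sum over its Trinity component gave 0.32. ABCG40 (TRINITY_DN21939_c0_g1), another importer and the most abundant of the list, averaged 52.0 ± 11.4 TPM in DS, 41.2 ± 19.4 in RW and 54.8 ± 12.4 in CK, and was not called.

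The other carotenoid cleavage dioxygenases are relatives of NCED that cut carotenoids at other bonds and do not lead to ABA. Of 8 unigenes, 1 rose and 2 fell in DS vs. CK, with the same counts in DS vs. RW. The shares called over all unigenes were 4.96% and 3.94%. CCD4 TRINITY_DN25600_c0_g1, whose product degrades carotenoids in plastids, averaged 42.3 ± 19.9 TPM in DS, 422 ± 66.4 in RW and 340 ± 104 in CK (−3.06 in DS vs. CK, limma adjusted p = 0.00245, and −3.41 in DS vs. RW, limma adjusted p = 0.00149). CCD4 TRINITY_DN21662_c1_g2 averaged 16.5 ± 7.40 TPM in DS, 271 ± 135 in RW and 159 ± 57.3 in CK (−3.23 and −3.96). These CCD4 unigenes share the KEGG entry of the NCED unigenes and moved opposite to NCED1. The third CCD4 unigene of that entry was not called (0.03 in DS vs. CK and −1.37 in DS vs. RW). The one that rose, TRINITY_DN24940_c0_g3, is a 203 bp fragment with 2.68, 3.87 and 2.96 TPM in DS, listed at 0 in all RW libraries, and with 0.55, 0 and 0.87 TPM in CK. It reached 1 TPM only in the DS libraries, so it passed the filter only through the group where it was high. Its rise was thus in part fixed by the filter. Its call in DS vs. CK (1.54, limma adjusted p = 0.0439) was lost when any library but RW replicate 2 was left out, and that in DS vs. RW without DS replicate 2 or RW replicate 3. Without a filter on low values the call in DS vs. CK was also lost (limma adjusted p = 0.0626).

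The ABA response element binding factors are bZIP proteins that turn on ABA-dependent genes. Of 6 unigenes, 1 rose and 1 fell in DS vs. CK, against 4.96% of all unigenes called. In DS vs. RW 1 fell, against 1.79% of all unigenes called lower. ABF2 (TRINITY_DN20863_c1_g1) averaged 69.9 ± 8.08 TPM in DS, 32.9 ± 10.9 in RW and 21.5 ± 8.04 in CK (1.71 in DS vs. CK, limma adjusted p = 0.0113). That call was lost without CK replicate 3 (limma adjusted p = 0.0523). The difference of 1.10 in DS vs. RW was not called (limma adjusted p = 0.0712). ABF4 (TRINITY_DN22778_c0_g1) averaged 9.42 ± 1.97 TPM in DS, 44.9 ± 8.38 in RW and 36.5 ± 5.03 in CK, and fell in DS vs. CK (−1.86, limma adjusted p = 0.00189) and in DS vs. RW (−2.14, limma adjusted p = 0.000944). In RW vs. CK none of the 53 unigenes of these 6 lists was called by limma. With an unadjusted p under 0.05 and the same fold threshold 4 would pass, against 4.34% of all unigenes. At that threshold 13 would pass in DS vs. CK, against 14.3%, and 13 in DS vs. RW, against 12%.

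The unigenes whose pattern over the 9 libraries was most like NCED1 were ranked by Pearson's r of log2(TPM + 1) among 13814 described unigenes of other Trinity components with a mean of at least 5 TPM. The 5 closest were ERF4 (TRINITY_DN15455_c1_g2, an ethylene-responsive transcription factor, r = 0.993), AZF1 (TRINITY_DN21966_c1_g1, a zinc finger protein described as ZAT10, 0.987), XERICO (TRINITY_DN23673_c0_g3, a probable E3 ubiquitin ligase, 0.985), TRINITY_DN22215_c0_g1 (a transmembrane protein 53-A, 0.984) and SKIP2 (TRINITY_DN17995_c0_g1, an F-box protein, 0.978). In all, 33 unigenes exceeded an r of 0.95. XERICO averaged 101 ± 41.5 TPM in DS, 16.3 ± 14.4 in RW and 4.01 ± 1.20 in CK, and ERF4 156 ± 39.5 in DS, 19.4 ± 14.9 in RW and 8.40 ± 1.68 in CK.

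For CYP707A3, with 13813 candidates, the closest were PAT1 (TRINITY_DN21483_c0_g2, a scarecrow-like protein, r = 0.987), At1g48040 (TRINITY_DN17872_c0_g2, 0.982) and At2g30020 (TRINITY_DN22423_c0_g2, 0.981), which are protein phosphatases 2C, a REVEILLE 8 protein (TRINITY_DN20351_c0_g1, 0.980) and ERF109 (TRINITY_DN16242_c0_g1, 0.980). Here 80 unigenes exceeded 0.95. At2g30020 averaged 420 ± 94.5 TPM in DS, 33.1 ± 7.99 in RW and 16.2 ± 1.18 in CK, and PAT1 268 ± 63.7 in DS, 33.7 ± 7.88 in RW and 20.1 ± 1.495 in CK. Neither list shared a unigene with the other among its 5 closest. With Spearman's correlation in place of Pearson's, 1 of the 5 closest was the same for each. These correlations rest on 9 libraries that share 3 group levels, and are descriptions. The rankings were not repeated without RW replicate 2, where NCED1 and CYP707A3 both had their highest RW value.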

How the data were processed

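The authors deposited TPM values per unigene with unigene length and annotation. Per the methods of the study, the reads were cleaned with Cutadapt, assembled de novo with Trinity, reduced to the longest transcript of each cluster, and quantified with Salmon. The submitters' processing notes also list StringTie 1.3.0 and HISAT2 2.0, whose use is not given in the sources used here. TPM keeps no read depth, so no counting interval was computed, and copies that share reads cannot be separated. Because TPM is no count, the differences were fitted on log2(TPM + 1) with limma 3.58.1 (R 4.3.3, with statmod 1.5.0; trend and robust options, 9 libraries in a single fit of 3 group means, two-sided p-values adjusted over 44538 unigenes). The pseudocount of 1 lowers the fold change of weakly expressed unigenes. The fit was tested on simulated data with planted changes.

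The members and lists were chosen with earlier results of these data known. Named unigenes were all members, the called unigenes and the most abundant unigene of each of 6 pathway lists, and the 5 unigenes most correlated with each member called in DS vs. CK. Symbols come from the deposited SwissProt match. Alternatives were other thresholds, pseudocounts, filters, scalings, fits, sums over unigenes, a replicate block and each library left out; sums over Trinity components, name sums with a library left out, the ratio from NCED1 and CYP707A3 alone, ratios of means without RW replicate 2 and a sum without the lipocalin match were added after the data were seen. Same-numbered replicates did not deviate together. No reference genome or sequence was used here.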

Additional observations from a re-analysis of the deposited data

How the results depend on the processing

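NCED1 and CYP707A3 stayed called in both drought comparisons under all 13 alternatives other than leaving out a library. The unadjusted p and the absent fold threshold only loosen the rule, so no call could be lost there. Sums by name left the TPM of NCED1 and CYP707A3 as it was, since each is the only unigene of its name. The sum over a component scored CYP707A3 together with CYP707A1 and the CYP707A2 fragment. Over all unigenes, 2209 were called in DS vs. CK, 1755 in DS vs. RW and 1 in RW vs. CK. An unadjusted p gave 6358, 5354 and 1934, with 5, 8 and 3 members. Sums over a Trinity component gave 1242, 1076 and 0, only the 6 libraries of a pair 1151 in DS vs. RW and 2 in RW vs. CK, and a pseudocount of 0.1 or sums by name 0 in RW vs. CK. The share of calls that were higher was 48.3% in DS vs. CK, 63.5% after median-of-ratios scaling (1338 higher, 768 lower) and 61.0% after quantile normalization (1222, 782), and in DS vs. RW 54.5%, 67.0% (1172, 577) and 64.2% (1094, 611). With 1 library left out the counts ran from 922 to 2417 in DS vs. CK, from 834 to 1544 in DS vs. RW and from 1 to 4 in RW vs. CK, and the members called from 2 to 3, from 1 to 3 and stayed at 0.

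The ratio of CYP707A to NCED TPM averaged 0.869 in DS, 0.226 in RW and 0.222 in CK from CYP707A3 and NCED1 alone, and 39.1, 16.1 and 13.3 without them, both with DS highest, in place of 1.41, 4.11 and 5.70 from all 10 members, with DS lowest. Without NCED1 and CYP707A3, the only NCED unigene left was NCED3, at 0.93 to 3.03 TPM in DS. Summed over component DN20125_c1, which also holds CYP707A1 and CYP707A3, the 221 bp CYP707A2 fragment took a log2 fold change of 3.27 in DS vs. CK and 2.76 in DS vs. RW in place of −0.70 and −0.68, and NPF4.6 took 0.32 over its component in DS vs. CK. For CYP707A2 TRINITY_DN23969_c0_g1, a filter of 5 TPM gave a call in DS vs. RW (limma adjusted p = 0.0491).

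The replicate numbers did not pair the libraries (correlations of same-numbered deviations −0.0945 to 0.0627). A replicate block gave 1564 calls in DS vs. CK, 1334 in DS vs. RW and 1 in RW vs. CK, with 2, 2 and 0 members, and NPF4.6 had an adjusted p of 0.0538 in DS vs. CK with limma. Read depth was unknown, so members near 1 TPM, such as the CYP707A2 fragment, carry an error that cannot be stated.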
